A study of Homo sapiens with 6 samples.

Results

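The DNA replication machinery was described here as 41 genes, chosen by name from the 16809 genes of the expression table of CAL-27 cells, a human tongue squamous carcinoma cell line. The genes encode the proteins that mark and license replication origins, unwind DNA, copy both strands, join the fragments of the lagging strand and supply deoxynucleotides. One group of 3 libraries came from CAL-27 cells treated with elesclomol and copper in a ratio of 1:1 (ES-Cu) for 24 h. The other group of 3 libraries came from control CAL-27 cells without that treatment. Elesclomol is an ionophore that carries copper into cells, and the submitters used it to study transcription in cuproptosis, a copper-dependent form of cell death. The doses, the vehicle of the controls and the time at which the controls were taken are not stated in the labels, and nothing tells whether a library is a culture of its own. The p-values thus cover only the variation among these 6 libraries, some of which could be technical.

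Replication starts at origins bound by the origin recognition complex (ORC), which with CDC6 and CDT1 loads the ring-shaped MCM2-7 helicase in G1. In S phase CDC45 and the GINS complex join the ring, DNA polymerase alpha-primase lays down primers, and the polymerases delta and epsilon extend them on the sliding clamp PCNA. Many of these genes are transcribed at the G1/S transition under E2F transcription factors, and dividing tumour cells keep them at high levels.

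The start-proximal promoters of the members with the largest rises, CDC6 and ORC6, and the largest falls, MCM6, POLE2 and POLD1, are shown because these genes moved in opposite directions although they are usually counted as one S-phase set. Each is the stretch of 250 bases before the RefSeq start of the gene in GRCh38.p14, read 5′ to 3′ on the gene's strand. Capitals mark exact matches, on either strand, to the E2F site variants TTTCCCGC, TTTGGCGC, TTTCGCGC and TTTGCCGC or to CCAAT, the core of the NF-Y box.
CDC6 (chr17:40287629-40287878, plus strand): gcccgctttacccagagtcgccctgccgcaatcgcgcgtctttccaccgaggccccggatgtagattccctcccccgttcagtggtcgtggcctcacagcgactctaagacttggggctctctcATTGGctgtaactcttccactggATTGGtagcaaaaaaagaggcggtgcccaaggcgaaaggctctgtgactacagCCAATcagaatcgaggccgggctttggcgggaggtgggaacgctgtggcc
ORC6 (chr16:46689409-46689658, plus strand): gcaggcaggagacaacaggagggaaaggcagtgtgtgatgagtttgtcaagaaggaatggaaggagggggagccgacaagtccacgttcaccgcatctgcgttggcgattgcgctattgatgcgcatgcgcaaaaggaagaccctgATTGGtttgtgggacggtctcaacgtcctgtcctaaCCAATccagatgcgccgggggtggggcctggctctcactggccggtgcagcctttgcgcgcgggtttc
MCM6 (chr2:135876444-135876693, minus strand): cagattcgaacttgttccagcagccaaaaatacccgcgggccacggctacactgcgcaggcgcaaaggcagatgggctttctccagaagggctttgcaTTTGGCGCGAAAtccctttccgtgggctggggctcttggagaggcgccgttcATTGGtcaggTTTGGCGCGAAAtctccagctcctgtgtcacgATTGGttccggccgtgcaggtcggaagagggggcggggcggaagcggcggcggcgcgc
POLE2 (chr14:49688215-49688464, minus strand): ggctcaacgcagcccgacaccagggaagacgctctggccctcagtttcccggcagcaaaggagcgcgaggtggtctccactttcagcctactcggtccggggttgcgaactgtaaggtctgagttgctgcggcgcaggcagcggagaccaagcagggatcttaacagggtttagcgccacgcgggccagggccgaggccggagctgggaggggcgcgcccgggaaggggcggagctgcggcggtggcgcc
POLD1 (chr19:50384073-50384322, plus strand): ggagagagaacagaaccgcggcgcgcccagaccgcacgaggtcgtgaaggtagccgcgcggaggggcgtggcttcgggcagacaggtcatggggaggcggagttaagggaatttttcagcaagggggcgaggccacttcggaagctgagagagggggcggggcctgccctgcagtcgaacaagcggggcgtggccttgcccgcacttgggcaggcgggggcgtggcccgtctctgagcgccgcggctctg
MCM6 held 4 E2F variant matches, which formed 2 pairs overlapping on opposite strands, and 2 CCAAT matches. CDC6 held 3 and ORC6 held 2 CCAAT matches and none of the E2F variants searched, and the POLE2 and POLD1 windows held neither motif. Only exact matches were counted, so an E2F site of another spelling, or one after the start, would be missed. The CDC6 window holds TTTGGCGG and the POLE2 window TTTCCCGG, which differ from searched variants only in the last base.

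Values were TPM, in which reads are divided by gene length and set to a fixed total, so levels can be compared between genes. All 41 members were in the table, none was at 0 in any library, and all passed the minimum mean of 1 TPM for testing, with values from 8.0 to 363 TPM. Log2 values correlated across genes at r = 0.994 to 0.995 within the ES-Cu and control groups and at 0.937 to 0.939 between them, where the points are genes of one sample and not replicates. Of 9 squamous epithelial markers all were detected, with a sum of 3051 to 3122 TPM in ES-Cu and 2731 to 2847 TPM in control libraries. Without SFN, which averaged 1233 ± 19.1 TPM in ES-Cu and 640.4 ± 31.4 TPM in control, the sum was 1839.8 to 1881 TPM in ES-Cu and 2126 to 2183 TPM in control. As deposited, 5 of the 9 markers were called lower and 2 higher, where 70% of all tested genes were called lower and 13.6% higher. The lowest log2 fold changes were those of TP63 (-1.78) and CDH1 (-1.27), and the 2 markers called higher were SFN (0.95) and KRT6A (0.43). After the median-of-ratios scaling described below, 5 were called higher and 2 lower, against 38% and 35.8% of all tested genes. The 3 fibroblast genes summed to 4.43 to 5.11 TPM in ES-Cu and 11.1 to 11.5 TPM in control, and the endothelial genes PECAM1 and CDH5 to 1.26 to 1.80 TPM in ES-Cu and 7.03 to 7.30 TPM in control. The leukocyte marker PTPRC reached at most 0.04 TPM in either group, while CD68, a lysosomal gene not restricted to leukocytes, made up nearly all of a leukocyte sum of 48.7 to 53.9 TPM in ES-Cu and 59.4 to 66.1 TPM in control. The part of other cell types in the results was not tested.

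As deposited, most replication genes were called lower in ES-Cu, by unequal amounts, and 3 were called higher. On the deposited scale 35 members were called lower, 3 higher and 3 neither (limma, adjusted p under 0.05 over all 11927 tested genes), where 70% of all tested genes were called lower and 13.6% higher. TPM is a share of a fixed total, and the median gene itself had a log2 fold change of -0.50 as deposited, so the same test was run after median-of-ratios scaling and after quantile normalization. After median scaling 14 members were called higher and 19 lower, against 38% and 35.8% of all tested genes, and after quantile normalization 6 were called higher and 25 lower, against 31.4% and 39.9%. Below, the words rise and fall are kept for genes that passed with the same sign under all 3 scalings. By that rule 19 of the 41 members fell (46.3%, against 31.2% of all tested genes) and 3 rose (7.32%, against 13.5%), and 19 did neither. The median log2 fold change of the members was -0.67 as deposited and -0.13 after median scaling, where the median gene stood at 0.004, and 26 members lay below the median gene on the deposited scale. On the deposited scale 7 members, MCM6, POLE2, POLD1, PRIM1, POLA2, MCM3 and LIG1, were called at least 2-fold lower, where 18.2% of all tested genes were, and 0 members at least 2-fold higher, where 2.69% were. After median scaling these counts were 0 lower, where 4.49% of all tested genes passed, and 2 higher, CDC6 and ORC6, where 7.01% passed. After quantile normalization they were 0 lower and 0 higher, where 3.77% and 5.73% of all tested genes passed. Together the members held 0.269% ± 0.00265 of all TPM in ES-Cu and 0.389% ± 0.000488 in control libraries (mean ± SD, n = 3 per group, as throughout). With the 20 highest genes removed these shares were 0.344% ± 0.00138 in ES-Cu and 0.445% ± 0.00149 in control, without overlap. The summed shares were not computed after median scaling, and the median gene was itself at -0.50 as deposited. They therefore do not show that the members as a sum differed more than a typical gene. These were whole cultures, in which fewer cells in S phase and less RNA per cell cannot be told apart.

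**Figure D1:**
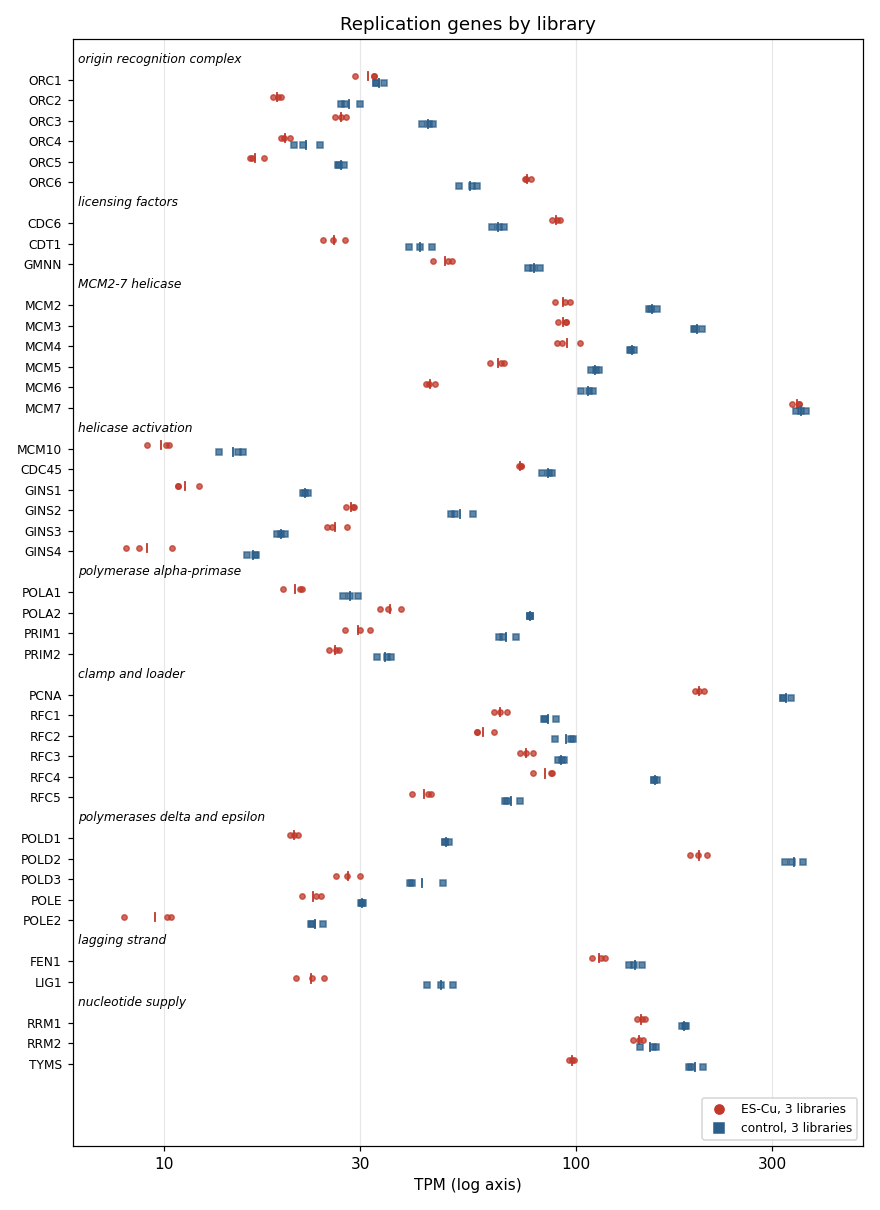
TPM of the 41 replication genes (log axis) in each library, grouped by role, with ES-Cu as red circles above control as blue squares and a bar at each mean. In 36 genes all ES-Cu libraries lay below all control libraries, in ORC6, CDC6 and GINS3 all lay above, and in MCM7 and RRM2 the groups overlapped.

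**Figure D2:**
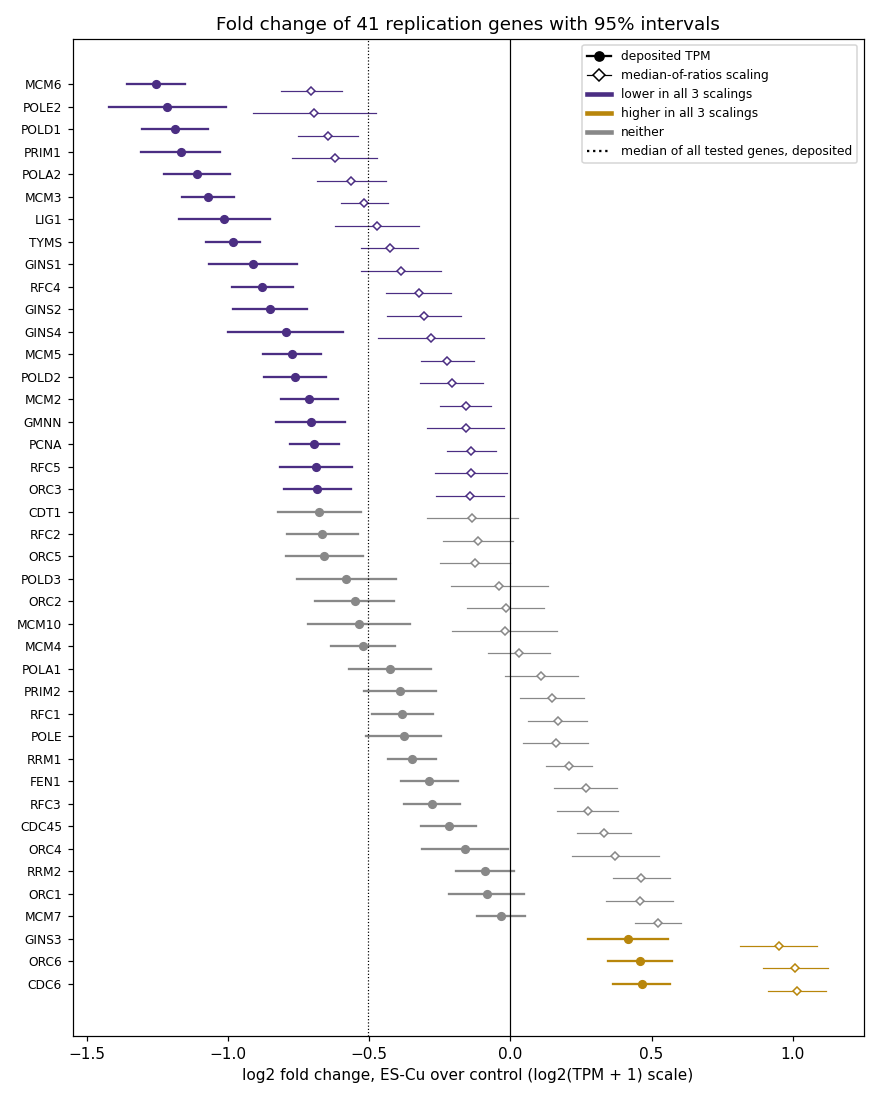
Log2 fold change of each gene, ES-Cu over control, with 95% intervals of the limma fit, as deposited (filled circles) and after median-of-ratios scaling (open diamonds), with the median of all tested genes on the deposited scale as a dotted line. MCM6 is lowest at -1.26 and CDC6 highest at 0.46, and the gene order is nearly the same in both scalings while the zero line moves.

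Counted without a test, 36 of 41 members had ES-Cu values wholly below the control values, against 70.3% of all tested genes, and 3 wholly above, against 14% of all. Fold changes below are log2 values on the log2(TPM + 1) scale of the deposited TPM, with the standard error of the limma fit, unless median scaling is named.

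The origin recognition complex split between its subunits. ORC6, the smallest subunit, rose and ORC3 fell, while ORC1, ORC2, ORC4 and ORC5 were called neither way in all 3 scalings. ORC6 had 75.5, 77.7 and 75.6 TPM in the ES-Cu libraries, against 52.0, 56.1 and 57.6 TPM in the control libraries. All ES-Cu values lay above all control values, with a log2 fold change of 0.46 (SE 0.051, adjusted p = 6.51e-06) that was 1.01 after median scaling. ORC3 had 26.1, 26.9 and 27.6 TPM in ES-Cu and 44.0, 45.04 and 42.3 TPM in control, well separated (-0.68, SE 0.054, adjusted p = 4.41e-07). After median scaling ORC3 stood at -0.14 (adjusted p = 0.0356), and that call was lost without ES-Cu replicate 1, control replicate 1 or control replicate 2 (-0.10, -0.14 and -0.13, adjusted p = 0.148, 0.0855 and 0.0912). ORC1, the large ATPase subunit whose protein is known to cycle in human cells, had 32.4, 29.2 and 32.4 TPM in ES-Cu and 34.3, 32.6 and 32.6 TPM in control. The ORC1 groups were separated by less than 1 TPM and did not pass the test as deposited (-0.08, adjusted p = 0.214), whereas median scaling gave a call of higher (0.46, adjusted p = 2.73e-05), as did quantile normalization (0.30, adjusted p = 0.000606). ORC2 and ORC5 were at -0.55 and -0.66 as deposited, near the median gene, and at -0.017 and -0.13 after median scaling. ORC4 stood at 19.7 ± 0.484 TPM in ES-Cu and 22.1 ± 1.62 TPM in control (-0.16, adjusted p = 0.0472). The ORC4 call as deposited was lost when any single library other than control replicate 3 was left out (adjusted p from 0.0534 to 0.182), and ORC4 was called higher after median scaling (0.37).

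Among the licensing factors CDC6 rose and GMNN fell, while CDT1 did not pass in all 3 scalings. CDC6, the ATPase that works with ORC in loading the helicase, had 91.7, 90.2 and 87.6 TPM in ES-Cu libraries and 66.8, 65.1 and 62.6 TPM in control libraries. The groups lay far apart, and CDC6 had the highest fold change of the 41 members (0.46, SE 0.046, adjusted p = 2.61e-06; 1.02 after median scaling). CDT1, which brings MCM2-7 to ORC, had 24.4, 27.6 and 25.7 TPM in ES-Cu and 41.8, 39.4 and 44.8 TPM in control. GMNN, which encodes the CDT1 inhibitor geminin, had 44.9, 50.2 and 49.0 TPM in ES-Cu and 81.8, 78.8 and 76.4 TPM in control. Both were lower in every ES-Cu library, by close amounts (-0.68, SE 0.067, for CDT1 and -0.71, SE 0.055, for GMNN). GMNN fell, with an adjusted p of 0.0388 after median scaling (-0.16) that passed the threshold only with all libraries, without ES-Cu replicate 2 or without control replicate 3. Leaving out ES-Cu replicate 1, ES-Cu replicate 3, control replicate 1 or control replicate 2 gave GMNN -0.091, -0.17, -0.13 and -0.17 on that scale (adjusted p = 0.167, 0.0626, 0.118 and 0.0663). CDT1 was not called after median scaling (-0.14, adjusted p = 0.115), but was without ES-Cu replicate 2 (-0.19, adjusted p = 0.0340).

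Of the 6 subunits of the MCM2-7 ring, the core of the replicative helicase, 4 fell and none rose, while MCM7 showed no called difference as deposited. MCM6 had 44.0, 45.4 and 43.4 TPM in ES-Cu and 103, 110.5 and 108 TPM in control, the largest fall of all 41 members (-1.26, SE 0.047, adjusted p = 2.49e-09; -0.71 after median scaling). MCM3 had 94.8, 90.7 and 94.5 TPM in ES-Cu and 194, 203 and 195 TPM in control (-1.07, SE 0.041). In both genes every ES-Cu library lay more than 2-fold below the control mean, and the libraries of each group were close together. MCM2 had 94.0, 88.8 and 96.9 TPM in ES-Cu and 151, 152 and 157 TPM in control (-0.71), and MCM5 had 65.7, 61.9 and 67.1 TPM in ES-Cu and 114, 109 and 112 TPM in control (-0.77). These falls were smaller but again left no overlap between the groups. MCM4 was lower as deposited (95.1 ± 6.53 TPM in ES-Cu and 137 ± 1.66 TPM in control, -0.52) and at 0.031 after median scaling, close to the median gene on both scales. MCM7, the highest of the 41 genes in both groups, had 349, 336 and 349 TPM in ES-Cu and 352, 343 and 363 TPM in control. The MCM7 libraries overlapped and the difference did not pass the test (-0.03, SE 0.038, adjusted p = 0.436), whereas median scaling put MCM7 at 0.52 (adjusted p = 6.42e-07) and quantile normalization at 0.082 (adjusted p = 0.0734).

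The factors that turn the loaded ring into an active helicase also divided. GINS1, GINS2 and GINS4 fell and GINS3 rose, although the 4 proteins form one complex. GINS3 had 25.6, 24.8 and 27.8 TPM in ES-Cu and 19.7, 19.3 and 18.8 TPM in control (0.42, SE 0.064, adjusted p = 9.45e-05; 0.95 after median scaling). GINS1 had 12.2, 10.8 and 10.8 TPM in ES-Cu and 21.7, 22.4 and 22.0 TPM in control (-0.91, SE 0.070, adjusted p = 3.74e-07). GINS2 had 28.8, 29.0 and 27.7 TPM in ES-Cu and 49.7, 56.2 and 50.8 TPM in control (-0.85). In each of the 3 genes above the ES-Cu and control libraries did not overlap, GINS3 being the one with ES-Cu on the high side. GINS4 had 10.4, 8.09 and 8.70 TPM in ES-Cu and 16.6, 15.9 and 16.8 TPM in control (-0.80, SE 0.092), also without overlap. CDC45, the partner of GINS on the MCM ring, was at 73.4 ± 0.332 TPM in ES-Cu and 85.6 ± 2.59 TPM in control (-0.22), a smaller difference than that of the median gene that was 0.33 after median scaling. MCM10, needed to activate the helicase, was at 9.86 ± 0.644 TPM in ES-Cu and 14.7 ± 1.00 TPM in control (-0.54; -0.021 after median scaling).

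In polymerase alpha-primase, the enzyme that makes the RNA-DNA primers, one polymerase and one primase subunit fell, by more than 2-fold on the deposited scale, and the other subunit of each pair stayed near the median gene. PRIM1, the catalytic primase subunit, had 29.9, 31.6 and 27.5 TPM in ES-Cu and 66.5, 71.8 and 65.1 TPM in control (-1.17, SE 0.063, adjusted p = 2.97e-08). POLA2, the accessory polymerase subunit, had 33.5, 34.9 and 37.6 TPM in ES-Cu and 77.3, 77.7 and 77.3 TPM in control (-1.11, SE 0.053, adjusted p = 1.28e-08). Both genes remained lower after median scaling (-0.62 for PRIM1 and -0.56 for POLA2). PRIM2, the large primase subunit, had 26.7, 25.2 and 26.2 TPM in ES-Cu and 33.0, 34.8 and 35.6 TPM in control. POLA1, the catalytic polymerase subunit, was at 20.9 ± 1.23 TPM in ES-Cu and 28.4 ± 1.16 TPM in control. PRIM2 and POLA1 were called lower as deposited (-0.39 and -0.43) but stood at 0.15 and 0.11 after median scaling. The 4 genes held 0.0112% ± 8.37e-05 of all TPM in ES-Cu and 0.0208% ± 0.000502 in control, the lowest ratio of the 9 role groups (0.538, and 0.601 with the 20 highest genes removed).

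PCNA and 2 of the 5 subunits of its loader RFC fell. PCNA, the sliding clamp, had 205, 199 and 195 TPM in ES-Cu and 319, 318 and 334 TPM in control (-0.69, SE 0.039, adjusted p = 3.75e-08; -0.14 after median scaling). RFC4 had 87.0, 87.5 and 78.6 TPM in ES-Cu and 155, 157 and 155 TPM in control (-0.88, SE 0.049). RFC5 had 44.6, 43.8 and 40.0 TPM in ES-Cu and 68.3, 73.1 and 67.4 TPM in control (-0.69, SE 0.057). In these 3 genes every ES-Cu library was well below every control library. The RFC5 fall was -0.14 after median scaling (adjusted p = 0.0457) and was not called on that scale without ES-Cu replicate 1, ES-Cu replicate 3, control replicate 1 or control replicate 2 (-0.15, -0.088, -0.15 and -0.11, adjusted p = 0.0645, 0.179, 0.0683 and 0.132). RFC3, a small loader subunit, had the highest fold change of the group (-0.28), with 75.6, 78.7 and 73.4 TPM in ES-Cu and 93.4, 90.4 and 92.8 TPM in control, and was at 0.27 after median scaling. RFC1, the large subunit, had a deposited fold change of -0.38 and a median-scaled one of 0.17, and for RFC2 these were -0.67 and -0.11 (adjusted p = 0.0840 for the median-scaled value). Without ES-Cu replicate 3 or control replicate 1 the median-scaled RFC2 value was called lower (-0.15 and -0.16, adjusted p = 0.0362 and 0.0337).

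Of the 5 genes of the polymerases that extend the primers, POLD1, POLD2 and POLE2 fell, and POLD3 and POLE did not pass in all scalings. POLD1, the catalytic subunit of polymerase delta on the lagging strand, had 21.2, 20.3 and 20.7 TPM in ES-Cu and 49.3, 48.1 and 48.2 TPM in control (-1.19, SE 0.052, adjusted p = 7.13e-09). POLE2, the second subunit of the leading-strand polymerase epsilon, had 10.2, 10.4 and 8.0 TPM in ES-Cu and 22.9, 24.3 and 22.7 TPM in control (-1.22, SE 0.094, adjusted p = 3.76e-07). These were among the 3 largest falls of the 41 members, with median-scaled values of -0.65 for POLD1 and -0.69 for POLE2. POLD2, the subunit that joins POLD1 to POLD3, had 198, 189.6 and 209 TPM in ES-Cu and 357, 322 and 336 TPM in control and fell (-0.76, SE 0.050). POLE, the catalytic subunit of epsilon, had 24.1, 21.7 and 23.4 TPM in ES-Cu and 30.3, 30.1 and 30.4 TPM in control. The POLE groups did not overlap, but the difference was smaller than that of the median gene (-0.38; 0.16 after median scaling). POLD3 was at 28.0 ± 1.95 TPM in ES-Cu and 42.4 ± 4.48 TPM in control (-0.58; -0.039 after median scaling).

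Of the genes that finish the lagging strand, LIG1 fell and FEN1 did not pass in all scalings. LIG1, the ligase that seals the fragments, had 24.5, 20.9 and 22.9 TPM in ES-Cu and 47.2, 43.5 and 50.3 TPM in control (-1.01, SE 0.073, adjusted p = 2.2e-07; -0.47 after median scaling). FEN1, the nuclease that trims their 5′ flaps, had 115, 118 and 109 TPM in ES-Cu and 145, 139 and 135 TPM in control. FEN1 was lower in every ES-Cu library (-0.29) yet higher after median scaling (0.27, adjusted p = 0.000755).

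In nucleotide supply, TYMS fell, and both subunits of ribonucleotide reductase had smaller differences than the median gene as deposited, though not after median scaling. TYMS, thymidylate synthase, had 99.2, 97.9 and 96.5 TPM in ES-Cu and 204, 191 and 189 TPM in control (-0.98, SE 0.043, adjusted p = 7.17e-09; -0.43 after median scaling). RRM2, the S-phase subunit that carries the iron cofactor, had 146, 143 and 138 TPM in ES-Cu and 144, 157 and 154 TPM in control. The RRM2 libraries overlapped and the difference did not pass the test as deposited (-0.09, adjusted p = 0.0886), though it did without control replicate 1 (-0.13, adjusted p = 0.0295). With median scaling RRM2 was higher (0.46, adjusted p = 6.97e-06), and likewise with quantile normalization (0.11, adjusted p = 0.0436). RRM1, the large catalytic subunit, was at 144 ± 3.23 TPM in ES-Cu and 184 ± 1.93 TPM in control (-0.35; 0.21 after median scaling).

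The share of each subunit in the summed TPM of its complex is not altered by a factor applied to a whole library, such as median scaling, though quantile normalization, which was not applied to these shares, can alter it. As deposited, each of the 5 complexes examined had subunits whose shares did not overlap between the groups. Separation was common in these data: TPM values did not overlap in 70.3% of all tested genes with ES-Cu lower and 14% with ES-Cu higher. Shares were not computed for genes outside these complexes. MCM7 made up 46.9% ± 0.464 of the MCM2-7 sum in ES-Cu and 33.3% ± 0.758 in control, while MCM6 made up 6.03% ± 0.314 in ES-Cu and 10.1% ± 0.316 in control. GINS3 made up 34.8% ± 1.99 of the GINS sum in ES-Cu and 17.5% ± 0.690 in control. ORC6 made up 40.2% ± 0.735 of the ORC sum in ES-Cu and 26.4% ± 1.27 in control. In these 4 genes the libraries of the groups did not overlap. The shares of MCM4 (12.9% ± 0.593 in ES-Cu and 12.9% ± 0.218 in control) and ORC4 (10.4% ± 0.265 in ES-Cu and 10.6% ± 0.557 in control) overlapped between the groups. So did those of ORC1 (16.5% ± 0.943 in ES-Cu and 15.9% ± 0.759 in control) and RFC2 (18.1% ± 1.49 in ES-Cu and 19.0% ± 0.756 in control). RFC4 led the RFC sum in both groups, with 25.7% ± 0.882 in ES-Cu and 31.3% ± 0.360 in control. In polymerase alpha-primase POLA2 led in both groups and POLA1 was the lowest, at 18.6% ± 1.01 in ES-Cu and 13.6% ± 0.307 in control, without overlap.

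**Figure D3:**
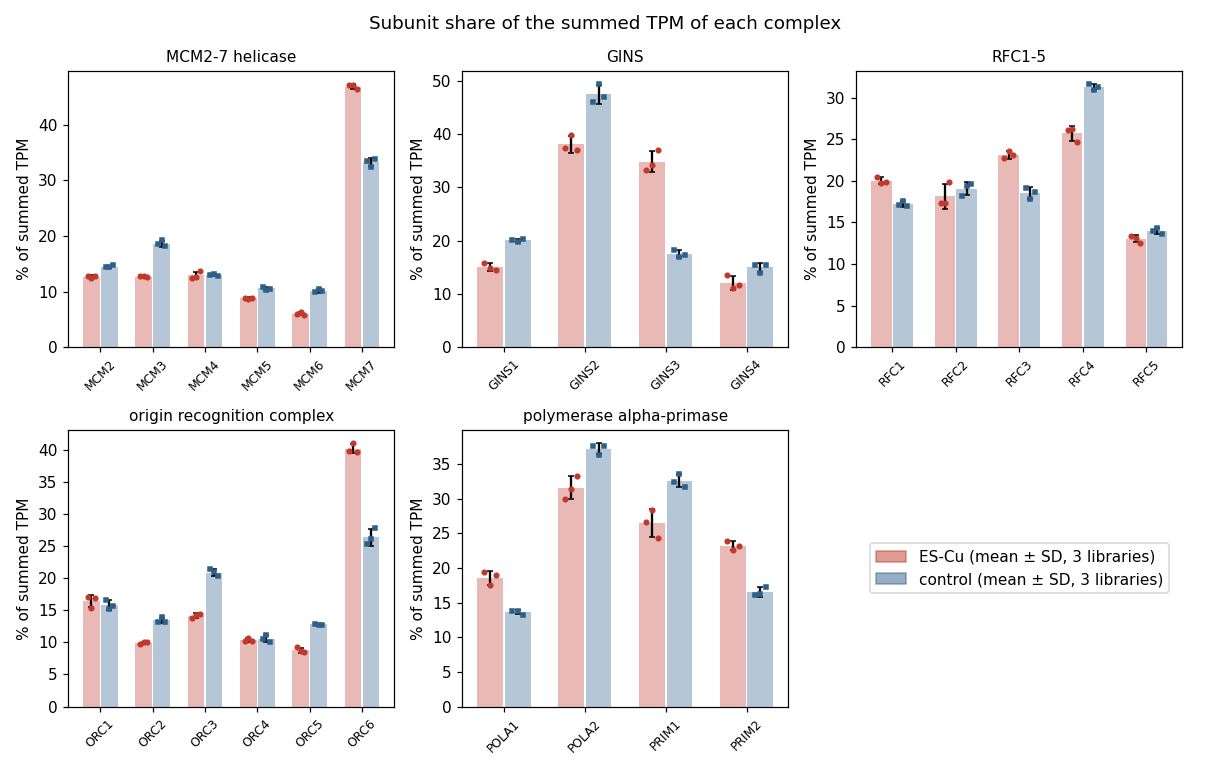
Share (%) of each subunit in the summed TPM of its complex, with ES-Cu bars left of control bars, error bars of 1 SD and a point per library (n = 3 per group). MCM7, GINS3 and ORC6 take larger shares in ES-Cu, and MCM3, MCM6, GINS2 and ORC3 smaller ones.

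Ratios between partners within a library, 9 in number, are likewise not altered by one factor per library. The ratio of CDC6 to CDT1 was 3.76, 3.27 and 3.41 in ES-Cu libraries and 1.60, 1.65 and 1.398 in control libraries, a log2 difference of 1.17 (SE 0.095). The ratio of POLE2 to POLE was 0.421, 0.481 and 0.341 in ES-Cu and 0.757, 0.808 and 0.748 in control (-0.91, SE 0.15). The ratio of PRIM1 to PRIM2 was 1.12, 1.26 and 1.05 in ES-Cu and 2.02, 2.06 and 1.83 in control (-0.79, SE 0.093). None of these ratios overlapped between the groups. Ratios of other gene pairs were not computed, so how common such separation is in these data was not measured. By contrast, the ratio of CDT1 to its inhibitor GMNN was 0.543, 0.549 and 0.525 in ES-Cu and 0.511, 0.499 and 0.586 in control, with ES-Cu values inside the control range (0.022, SE 0.074, exact permutation p = 0.9, two-sided). The ratio of RRM2 to RRM1 was 1.01, 1.01 and 0.936 in ES-Cu and 0.775, 0.851 and 0.850 in control (0.26, SE 0.058). Ratios of POLD3 to POLD1 (0.63), ORC1 to ORC2 (0.49) and RFC1 to PCNA (0.31) were also higher in all ES-Cu libraries. The ratio of MCM10 to MCM2 differed by 0.14 (SE 0.10, exact permutation p = 0.3). The other 7 ratios each had a two-sided exact permutation p of 0.1, which is the lowest value this design can reach, and 0.129 after Benjamini-Hochberg adjustment over the 9 ratios. After quantile normalization, a check added after the data were seen, all 9 log2 differences kept their sign, and those of MCM10 to MCM2 (0.45), RFC1 to PCNA (0.47) and CDT1 to GMNN (0.094) grew by more than 1.5 times.

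The levels of the members spanned a wide range in both groups, and MCM7 led in each. In ES-Cu libraries MCM7 was followed by PCNA (199.8 ± 4.92 TPM) and POLD2 (199 ± 9.72 TPM), which did not differ beyond their spread, and by RRM1 (144 ± 3.23 TPM) and RRM2 (142 ± 4.13 TPM), which did not either. In control libraries MCM7 (353 ± 10.2 TPM) was followed by POLD2 (338 ± 17.7 TPM) and PCNA (324 ± 8.75 TPM), again within their spread, and then by MCM3 (197 ± 5.04 TPM) and TYMS (194 ± 8.32 TPM). MCM3 was the fourth highest of the 41 genes in control and the ninth in ES-Cu. The lowest were GINS4, POLE2 and MCM10 in ES-Cu (9.08 ± 1.23, 9.53 ± 1.33 and 9.86 ± 0.644 TPM) and MCM10, GINS4 and GINS3 in control (14.7 ± 1.00, 16.4 ± 0.476 and 19.3 ± 0.450 TPM). Across the 41 genes, Spearman's rho of the fold change was -0.082 with the control level and 0.095 with the span in RefSeq, as a description.

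E2F variants were frequent in front of these genes. Of the 37 members with a promoter in the RefSeq table, 13 (35.1%) held one in the 250 bases before the start, against 453 of 9821 tested genes with a promoter (4.61%) and 761 of all 27305 promoters in the table (2.79%). CCAAT was found before 21 members (56.8%) and before 3479 of the 9821 tested genes (35.4%), or 33.0% of all promoters. Among members that fell, 8 of 17 promoters held an E2F variant, among members that rose 0 of 3, and among the others 5 of 17. No E2F variant and CCAAT match overlapped in a member. MCM6 had the most E2F variant matches, 4 in 2 overlapping pairs, and also the largest fall. MCM7 held 2 matches and was not called as deposited (-0.03). POLE2, POLD1 and PRIM1 fell nearly as much as MCM6 with none in the window. A match of letters is a description and not evidence that a factor binds there. Nor is the lack of an exact match evidence that a promoter has no E2F site.

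Further genes of DNA replication, 41 in 7 lists, were counted beside the members. Of these, 16 fell (39.0%) and 2 rose (4.88%), against 31.2% and 13.5% of all tested genes, with a median log2 fold change of -0.66 beside -0.50 for the median gene. Origin firing genes gave 3 that fell of 9, CDC7 (-1.15), the kinase that starts firing, its activator DBF4 (-0.90) and WDHD1 (-0.999), which links the helicase to polymerase alpha. DONSON, a factor in helicase assembly, rose (0.21). None of the 3 RPA genes, which coat single-stranded DNA, and none of the polymerase subunits POLD4, POLE3 and POLE4 passed the test with one sign in all 3 scalings. In fork protection and processing, 3 of 9 fell, namely TOP2A, TIMELESS (-1.16) and RNASEH2A (-0.98), and TOP1 rose.

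The topoisomerases, which release the twist ahead of forks, moved in opposite directions. TOP1 had 186, 175 and 177 TPM in ES-Cu and 105, 117 and 108 TPM in control (0.70, SE 0.049, adjusted p = 1.64e-07). TOP2A, which also separates chromosomes in mitosis, had 111, 105 and 108 TPM in ES-Cu and 348, 363 and 342 TPM in control (-1.69, SE 0.041, adjusted p = 7.58e-11). TOP1 was the higher of the pair in every ES-Cu library and TOP2A in every control library. TOP1 and DONSON are outside the rule for naming genes and were picked once their values were known, as the 2 genes that rose. Among alternative clamp loaders 3 of 5 fell, CHTF8 (-1.14), RAD17 (-0.91) and ATAD5 (-0.82). Of 5 chromatin assembly genes 2 fell, ASF1B (-0.84) and CHAF1A (-0.73). Other nucleotide supply genes fell in 5 of 7 cases, among them DUT (-1.01) and DTYMK (-0.92).

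Genes of mitosis, the cell cycle phase in which the copied chromosomes separate, had a lower median fold change than the replication genes. Of 15 mitosis genes, 14 fell (93.3%, against 31.2% of all tested genes) and 0 rose, with a median log2 fold change of -1.16, and 11 were called at least 2-fold lower as deposited, where 7 of the 41 replication genes and 18.2% of all tested genes were. KIF20A, a kinesin of cytokinesis, had 11.7, 10.4 and 10.7 TPM in ES-Cu and 72.3, 73.0 and 72.8 TPM in control (-2.63), below any replication gene, and CENPF (-1.78) and CCNB1 (-1.67) followed. Of 12 homologous recombination genes, 5 fell (41.7%, against the same 31.2%) and 0 rose, with a median of -0.68. BRCA1 (-1.10), RAD54L (-0.94) and BLM (-0.92) had the largest falls there. These counts describe the lists, and the difference between lists was not tested.

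**Figure D4:**
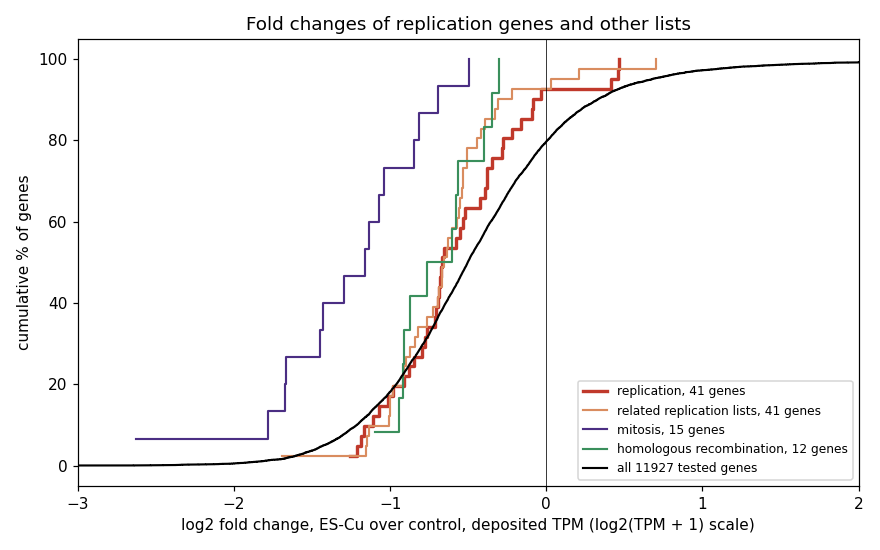
Cumulative share (%) of genes against the log2 fold change, ES-Cu over control, as deposited, for the replication genes, the related replication lists, mitosis, homologous recombination and all 11927 tested genes. The mitosis curve lies to the left with a median of -1.16, and the replication curve (median -0.67) runs close to the related lists and crosses the curve of all genes in its lower part.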

How the data were processed

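RNA-seq of 6 CAL-27 libraries was deposited as 1 table of TPM per gene, and the authors computed the TPM values, which keep no sequencing depth, so no counting interval was given. The submitters' processing notes name HISAT, Bowtie2 and the mouse build GRCm38.p6, without their roles, while the table lists human genes. No coordinate was therefore taken with that build.

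The values were put on the log2(TPM + 1) scale and tested by limma (3.58.1, R 4.3.3; mean-variance trend, no covariate, both groups of 3 libraries in one fit) over the 11927 genes averaging 1 TPM or more, with Benjamini-Hochberg adjustment and a threshold of 0.05. The method was tested on simulated data. The same fit was run after median-of-ratios scaling over genes above 0 in every library and after quantile normalization of the whole table. Alternatives were removal of the 20 highest genes, pseudocounts of 0.5 and 0.1 TPM, no filter and a mean of 5 TPM, no trend, a replicate block and each library left out. Partner ratios were compared by exact permutation.

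The members and lists were chosen with earlier results of these data known, so list counts are descriptions. In each role group the highest and lowest member and every member that rose or fell was given by library, with up to 3 called genes for each related list. One gene that this rule names is not reported here. Promoter windows came from RefSeq (GRCh38.p14) for 37 of 41 members. The marker CD3E and PCNA-binding motifs in proteins were not analysed here.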

Additional observations from a re-analysis of the deposited data

How the results depend on the processing

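Scaling was the choice that moved the counts. Over all tested genes, 1628 were called higher and 8351 lower as deposited, 4532 and 4266 after median-of-ratios scaling, and 3749 and 4756 after quantile normalization. Of the members, 14 were then higher and 19 lower after median scaling, and 6 higher after quantile normalization. The sign turned positive after median scaling for ORC1 (0.46), ORC4 (0.37), MCM4 (0.031), MCM7 (0.52), CDC45 (0.33), POLA1 (0.11), PRIM2 (0.15), RFC1 (0.17), RFC3 (0.27), POLE (0.16), FEN1 (0.27), RRM1 (0.21) and RRM2 (0.46). It did so after quantile normalization for ORC1 (0.30), ORC4 (0.26), MCM7 (0.082), CDC45 (0.080), RFC3 (0.0088), POLE (0.034) and RRM2 (0.11), and with the 20 highest genes removed for ORC1 (0.072), MCM7 (0.13) and RRM2 (0.069). Median scaling, and removal of the 20 highest genes, each multiply the remaining values of a library by a single factor. Such a factor shifts all log2 fold changes by nearly the same amount, and after median scaling the median gene moved to 0.004. The cause of the sign changes after quantile normalization was not tested. Removing the 20 highest genes shrinks the total, so each of the 9 role-group TPM shares had to become higher. Each did so by more than its SD in ES-Cu and control. The ratio of ES-Cu to control was then 1.01 for ORC (0.0242% and 0.0239%), with overlapping libraries. For the licensing factors the ratio was 0.985 (0.0209% and 0.0213%), again with overlapping libraries. In the other role groups every ES-Cu library stayed below every control library with those 20 genes removed. Role-group sums were not computed after median scaling, which moved the fold changes further than this removal did. Pseudocounts and the filters moved no sign. Members falling in all 3 scalings numbered 17 without a filter (GMNN and RFC5 lost) and 16 without the trend (ORC3, GMNN and RFC5 lost). Leaving out single libraries gave 1502 to 1593 genes higher and 8088 to 8278 lower, 34 to 35 members lower and 3 higher as deposited, and 16 to 20 members that fell and 3 that rose in all 3 scalings. With replicate numbers as a block, 1614 genes were higher and 8343 lower, 34 members were lower as deposited (ORC4 lost), and 20 fell in all 3 scalings (RFC2 added). Same-numbered libraries did not deviate together (r = 0.021, -0.034 and 0.011), and not every library correlated best with its own number, so the numbers were not read as pairs. The depth of the libraries is unknown.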
